A study of Drosophila melanogaster with 8 samples.

Results

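Second instar larvae homozygous for the frameshift allele tgs1 2-3 were compared with wild-type second instar larvae across all genes that reached a mean of at least 1 FPKM (fragments scaled by transcript length and by the mapped total of the library) over the 4 larval libraries. The deposited larval table has 16902 entries, of which 15735 carry a FlyBase gene, and 9545 of these reached the minimum. The genes just inside it were snoRNA:Tudor-SN-a and lncRNA:CR44977, and CG31161 and nesd, at means of 0.999 and 0.998 FPKM, lay just outside. Genes were grouped into 63 families by symbol, and each family was read for whether its members moved together between the genotypes or followed 1 library. The tgs1 2-3 allele was made with Cas9 and is a small deletion that shifts the tgs1 reading frame. Homozygotes came from heterozygous mothers and die as second instar larvae. The control, called wild type here, is the tgs1 2-4 allele from the same mutagenesis, which per the labels has intact tgs1 and moi reading frames and acts as a wild-type allele. Both genotypes were grown at 25 °C, and each has 2 replicate libraries of poly(A)-selected RNA, each from about 80 whole larvae. No part of the labels states that replicates came from separate cultures, so p-values measure only the spread between these libraries, which may be technical.

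Tgs1 adds the extra methyl groups that turn the cap of spliceosomal small nuclear RNAs (snRNAs) and some small nucleolar RNAs (snoRNAs) into a trimethylguanosine cap. In flies the tgs1 reading frame shares a bicistronic mRNA with moi, which encodes a telomere capping protein. A second instar larva feeds and renews its cuticle at each moult. Salivary glue and the larval serum proteins belong to the third instar.

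The 4 libraries differed in ways that the genotype does not account for. Genes of the mitochondrial DNA made up 15.2% and 13.9% of the summed FPKM of named genes in tgs1 2-3 replicates 1 and 2, against 29.0% and 14.95% in wild-type replicates 1 and 2. Wild-type replicate 1 stood apart in this share. Most of the share was a single row, mt:tRNA:Val-TAC, with 63803 and 63619 FPKM in tgs1 2-3, against 152586 and 67981 FPKM in wild type. mt:CoIII was likewise high in wild-type replicate 1. mt:CoI was not, with 7780 and 5516 FPKM in tgs1 2-3, against 7029 and 5955 FPKM in wild type. Wild-type replicate 1 was also high in short transcripts. Over the 477 tested genes with transcripts of up to 0.5 kb its median deviation from the gene mean was 0.20 on the log2 scale, and over the 1555 above 4 kb it was -0.11. Pearson's r across genes on log2(FPKM + 1) was 0.953 between the tgs1 2-3 libraries and 0.929 between the wild-type libraries, and 0.931 to 0.953 between genotypes, so replicates were no more alike than libraries of different genotype. Genes are not independent replicates, and this is a description. The table gives no counts, and library depth is therefore unknown. Of the tested genes, 51.8% overlap another annotated gene, and whether reads were counted by strand is not given in the sources used here.

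As deposited, most genes had higher FPKM values in tgs1 2-3 larvae. The median log2 change of FPKM + 1 over all 9545 genes was 0.25, and after median-of-ratios scaling of the 4 libraries, with factors of 1.08 and 1.15 for tgs1 2-3 and 0.868 and 0.967 for wild type, it was 0.01. Both tgs1 2-3 libraries lay above both wild-type libraries for 4116 genes (43.1%) and below for 426 (4.46%) as deposited, against 1668 (17.5%) and 1356 (14.2%) after scaling. Counts of members above or below, and of members highest or lowest in a library, are therefore given after scaling unless stated. Counts above and below stand beside 17.5% and 14.2%. The share of all tested genes highest in a library was 26.6% and 17.96% in tgs1 2-3, against 27.9% and 27.5% in wild type. The share lowest in a library was 17.9% and 23.6% in tgs1 2-3, against 33.1% and 25.5% in wild type. Each pair gives replicates 1 and 2 in turn. A family's change is given relative to the median of all tested genes. With limma, 0 genes (0% of those tested) passed a Benjamini-Hochberg adjusted p of 0.05 with a log2 change of at least 1, with 0.0886 (TotA) as the lowest adjusted value. Without adjustment, limma p-values under 0.05 were found for 668 genes higher and 74 lower as deposited, and 195 higher and 220 lower after scaling. An exact permutation test of 2 libraries against 2 cannot give a p under 0.333. When tgs1 2-3 replicate 1 was left out, 7 genes were called higher as deposited (TotA, Lsp2, Lsp1gamma, Fbp1, Sgs3, Sgs7 and Sgs8), and after scaling 0 were, with a lowest adjusted p of 0.217. That fit has 1 mutant library, which is assumed to vary like the wild-type libraries, and the genes other than TotA are high in that mutant library alone. No gene named below passed the test with all 4 libraries.

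**Figure D1:**
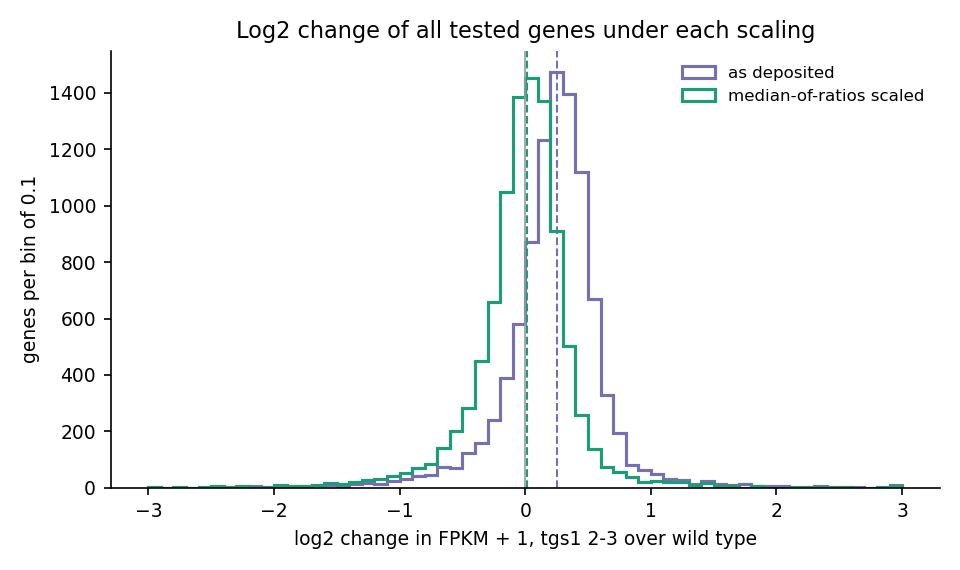
Number of genes (vertical axis) by log2 change in FPKM + 1, tgs1 2-3 over wild type (horizontal axis, values beyond 3 placed in the end bins), as deposited and after median-of-ratios scaling, with dashed lines at the medians. The whole distribution moves from a median of 0.25 as deposited to 0.01 after scaling.

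For the machinery that Tgs1 serves, family medians lay near that of all tested genes. The row at the targeted locus is moi (3R, 18255530 to 18257677), with 6.41 and 6.85 FPKM in tgs1 2-3 libraries, against 4.64 and 7.42 FPKM in wild-type libraries. The wild-type libraries enclose both mutant values. A frameshift need not remove the mRNA, so this row does not check the genotype, and a separate tgs1 row was not analysed here. The 16 tested Sm proteins and their assembly factors, which build the ring around snRNAs, had a median change of 0.10 relative to all genes. The 14 Integrator subunits, which cut the ends of snRNAs, had 0.12, and 20 splice site recognition factors had 0.09. Beside 17.5% of all tested genes, 3 Sm and assembly genes, 5 Integrator subunits and 6 splice site factors lay above after scaling. Beside 14.2%, 0, 1 and 1 of them lay below. Among these, SmF was higher in both mutant libraries, with 32.9 and 36.4 FPKM in tgs1 2-3, against 25.7 and 15.9 FPKM in wild type, and so was Srp54, with 22.97 and 22.8 FPKM in tgs1 2-3, against 8.94 and 15.9 FPKM in wild type. IntS12 went the other way, with 10.8 and 16.9 FPKM in tgs1 2-3, against 14.3 and 17.0 FPKM in wild type. As deposited the higher mutant value lies inside the wild-type range, and the genotypes separate only after scaling.

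Of 22 listed snRNA genes only 2 reached the minimum in these poly(A)-selected libraries. These were snRNA:7SKa, with 3.79 and 5.02 FPKM in tgs1 2-3, against 2.99 and 6.30 FPKM in wild type, and snRNA:U6:96Aa, with 1.43 and 0.685 FPKM in tgs1 2-3, against 1.10 and 0.947 FPKM in wild type. Neither separated the genotypes. Of the 68 tested snoRNA and scaRNA genes, 10 lay above and 17 below after scaling, beside 17.5% and 14.2% of all tested genes. Their median was -0.18 relative to all genes. The family holds members at both ends. scaRNA:PsiU2-55, which guides pseudouridylation of U2, had 8.204 and 10.4 FPKM in tgs1 2-3, against 0.193 and 6.90 FPKM in wild type, with wild-type replicate 1 alone near 0. snoRNA:U3:9B, a copy of the U3 RNA that acts in ribosomal RNA cleavage, had 7.46 and 14.9 FPKM in tgs1 2-3, against 3.64 and 3.03 FPKM in wild type. At the low end, snoRNA:Psi28S-3385b had 3.10 and 2.78 FPKM in tgs1 2-3, against 5.37 and 5.89 FPKM in wild type. snoRNA:Psi28S-2562 was also lower, with 0.813 and 0.847 FPKM in tgs1 2-3, against 1.70 and 1.55 FPKM in wild type. Many of these genes lie in introns of other genes, and their values can hold reads of the host.

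The telomere capping genes include moi. After scaling 3 of their 6 tested members were higher in both mutant libraries and 0 lower, beside 17.5% and 14.2% of all genes. ver had the largest difference, with 7.57 and 15.1 FPKM in tgs1 2-3, against 4.38 and 4.66 FPKM in wild type. HipHop had 3.52 and 4.60 FPKM in tgs1 2-3, against 2.70 and 2.31 FPKM in wild type. The third was the gene of the heterochromatin protein HP1a. The remaining members, cav, tea and moi, overlapped between genotypes after scaling. The 6 tested genes of nonsense-mediated decay, which destroys RNA with early stop codons, had a median of -0.04, and 0 of them separated the genotypes after scaling. These are Upf1, Upf2, Upf3, Smg5, Smg6 and nonC, with scaled log2 changes between -0.07 and 0.07.

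Among the 56 families with at least 4 tested members, 6 followed the genotype, 14 followed 1 library, 4 split within a genotype and 32 were flat. A family was taken to follow the genotype when the median deviations of both mutant libraries were on the same side of both wild-type medians under both scalings and its median change differed from that of all genes by at least 0.3 in the same direction. Of the rest, a family was taken to follow 1 library when the medians spanned at least 0.5 after scaling and the gap at one end was over a 0.5 share of the span. Hemocyte genes and odorant binding proteins meet both descriptions and are counted with the genotype, with gaps of 52.6% and 57.3% of the span set by tgs1 2-3 replicate 1 and wild-type replicate 1. The limits are descriptive, and no test was made over members of a family. The families that followed the genotype were DNA replication genes and hemocyte genes, higher in tgs1 2-3, and cytoplasmic ribosomal proteins, chitin matrix proteins, odorant binding proteins and tRNA genes, lower in tgs1 2-3.

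**Figure D2:**
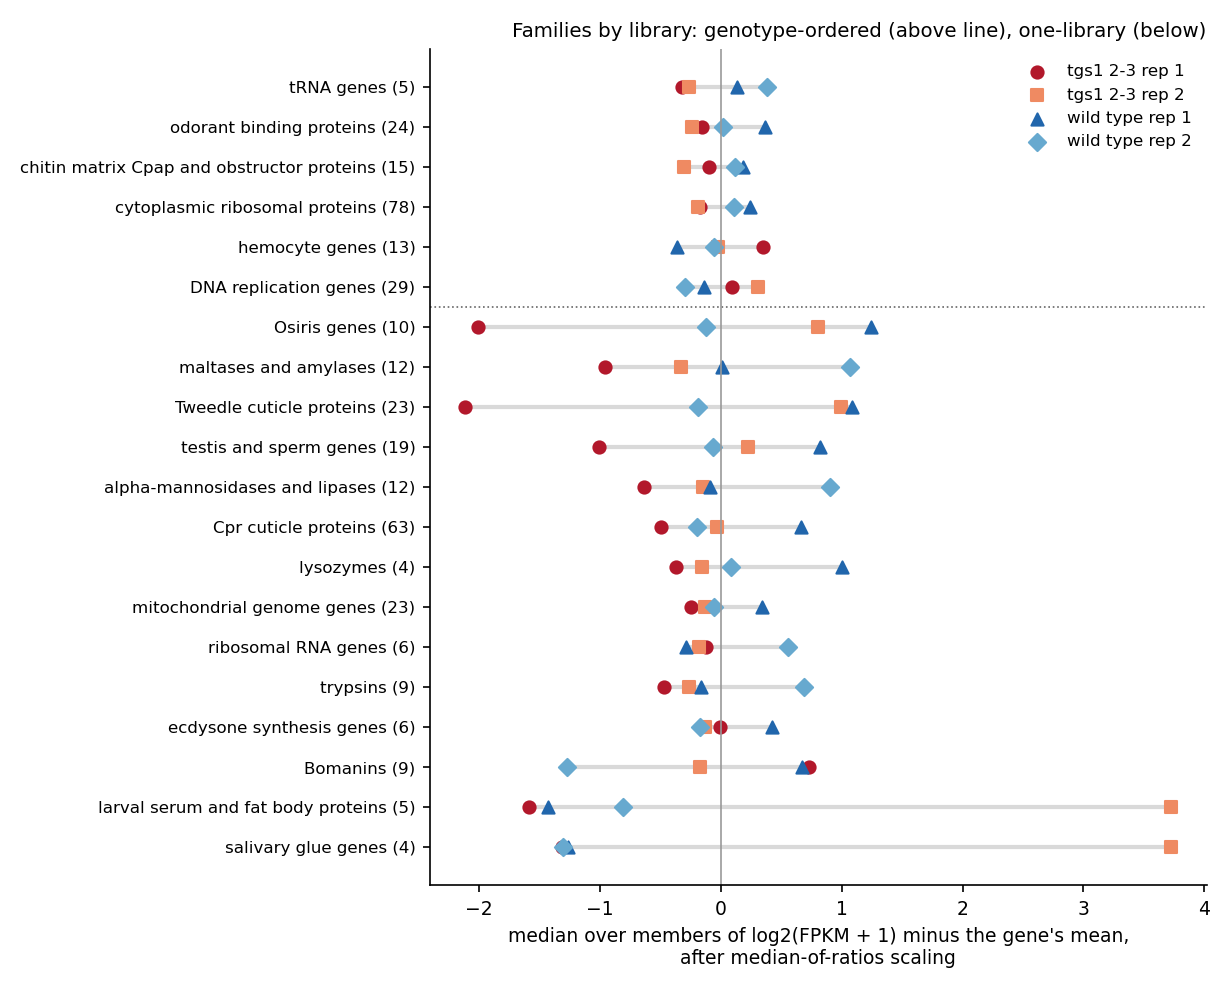
For each family (rows, number of tested members in brackets), the median over members of log2(FPKM + 1) minus the mean of the gene (horizontal axis, after median-of-ratios scaling) in each of the 4 libraries. Above the dotted line the genotypes separate, with spans of 0.43 to 0.71, and below it 1 library lies apart, with spans of 0.59 to 5.31.

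DNA replication genes were higher in tgs1 2-3 larvae, and the difference ran through the complexes of the fork. Of 29 tested members, 22 lay above and 1 below after scaling, where 17.5% and 14.2% of all tested genes did, and the median relative change was 0.38 as deposited and 0.40 after scaling. The largest was RnrL (2L, 10325026 to 10327943), the large subunit of ribonucleotide reductase, which makes deoxynucleotides. It had 6.96 and 7.74 FPKM in tgs1 2-3, against 2.67 and 2.19 FPKM in wild type. The small subunit RnrS had 19.6 and 20.1 FPKM in tgs1 2-3, against 11.6 and 8.58 FPKM in wild type. RPA3, a subunit of the protein that coats single-stranded DNA and the member with the highest mean, had 23.6 and 33.8 FPKM in tgs1 2-3, against 11.2 and 10.98 FPKM in wild type. For each of these both mutant libraries lay well above both wild-type ones.

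PCNA, the sliding clamp, had 21.0 and 26.9 FPKM in tgs1 2-3, against 14.3 and 7.41 FPKM in wild type, so wild-type replicate 2 was the lowest. The helicase subunits Mcm2, Mcm3, Mcm5, Mcm6 and Mcm7 lay above in all 5 cases, with scaled log2 changes of 0.38 to 0.65, and Mcm6 had 4.75 and 5.72 FPKM in tgs1 2-3, against 2.47 and 2.51 FPKM in wild type. The clamp loader RfC4 had 14.4 and 17.9 FPKM in tgs1 2-3, against 7.73 and 7.45 FPKM in wild type. geminin, an inhibitor of replication licensing, was also higher, with 18.2 and 19.99 FPKM in tgs1 2-3, against 10.5 and 10.1 FPKM in wild type. Prim1, the primase subunit, was the member below, with 2.42 and 2.37 FPKM in tgs1 2-3, against 1.9998 and 2.29 FPKM in wild type, a difference that scaling alone sets. For RnrL the log2 change was 1.29 as deposited (SE 0.21, limma adjusted p = 0.365), and for RPA3 it was 1.28 (SE 0.25, limma adjusted p = 0.557). The library of tgs1 2-3 replicate 2 had the highest value of 20 of the 29 members after scaling. Without it the family's relative change was 0.22, and without tgs1 2-3 replicate 1 it was 0.57. In whole larvae, a different number of cells of a type and a different amount of RNA per cell cannot be told apart.

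Histone mRNAs of the histone cluster, which are made with DNA replication and end without a poly(A) tail, were almost outside the comparison: 1 of 72 listed genes reached the minimum. That gene, His2B:CG33868, had 5.40 and 7.53 FPKM in tgs1 2-3, against 0.387 and 0.188 FPKM in wild type, and both mutant libraries stood clear of wild type (log2 change 2.53, SE 0.26, limma adjusted p = 0.26). Both wild-type values lie under the minimum, so this gene was tested only through its mutant values. It does not stand for the family. Copies of a histone gene are near-identical, so its value could hold reads of other copies. The 4 tested replacement histones, which carry tails, had a relative median of 0.12. After scaling, His4r, His2Av and His3.3B overlapped and His3.3A was higher in both mutant libraries, with 92.5 and 125 FPKM in tgs1 2-3, against 73.7 and 74.1 FPKM in wild type.

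Cytoplasmic ribosomal proteins were lower in tgs1 2-3 larvae relative to other genes, by a small and even amount. After scaling 64 of 78 tested members lay below and 0 above, where 14.2% and 17.5% of all tested genes did, with a relative change of -0.35. As deposited 24 lay below and 5 above, and the relative change was -0.30. RpLP2, a stalk protein and the member with the highest mean, had 4377 and 6099 FPKM in tgs1 2-3, against 5121 and 5380.1 FPKM in wild type, which overlapped until the libraries were scaled. RpS15Aa had 1087 and 1073 FPKM in tgs1 2-3, against 1462 and 1554 FPKM in wild type. RpL15 had 279.9 and 285 FPKM in tgs1 2-3, against 390.0 and 385 FPKM in wild type. In these last genes both pairs were tight and apart without any scaling.

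RpL32, often used as a reference in qPCR, had the largest difference of the family, but 1 library made it. Its values were 503 and 522 FPKM in tgs1 2-3, against 2353 and 577 FPKM in wild type, so wild-type replicate 1 lay far above the rest. After scaling, the highest value of 60 of the 78 members was in wild-type replicate 1, whose short transcripts were high, and the median ribosomal protein transcript has 850 bases. Over all 1539 tested genes of 0.5 to 1 kb the median scaled change was -0.03. Without wild-type replicate 1 the family's relative change was -0.25, and over the leave-outs it lay between -0.40 and -0.25. The part of transcript length in the difference was not tested. As a share of the summed FPKM of named genes, ribosomal proteins took 22.7% and 23.6% in tgs1 2-3, against 22.8% and 24.4% in wild type, shares that overlap.

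Genes that make ribosomes, charge tRNAs, fold proteins and degrade them leaned the other way, each short of the limit of 0.3 after scaling. The 14 tested chaperonins and cochaperones had a relative change of 0.31 as deposited and 0.27 after scaling, with 9 above and 0 below. The 34 proteasome subunits had 0.28 and 0.24, with 20 above and 2 below. The 35 nucleolar and ribosome biogenesis factors had 0.24 and 0.23, with 21 above and 2 below, and the 29 aminoacyl-tRNA synthetases had 0.19 and 0.22, with 15 above and 2 below. Each of these counts above stands beside 17.5% of all tested genes.

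All 8 tested subunits of the CCT chaperonin, which folds actin and tubulin, lay above, with scaled log2 changes of 0.26 to 0.41. CCT5 had 85.3 and 108 FPKM in tgs1 2-3, against 52.3 and 66.8 FPKM in wild type. Hsp60A, the mitochondrial chaperonin, had 145 and 172 FPKM in tgs1 2-3, against 73.7 and 112 FPKM in wild type. The family's most abundant member, Hsc70-4, overlapped, with 1675 and 1464 FPKM in tgs1 2-3, against 967 and 2172 FPKM in wild type. Nopp140, a nucleolar assembly factor, had the largest difference among ribosome biogenesis genes, with 19.5 and 16.9 FPKM in tgs1 2-3, against 8.73 and 6.64 FPKM in wild type. Prosalpha4, of the proteasome core, had 70.8 and 67.8 FPKM in tgs1 2-3, against 44.8 and 36.4 FPKM in wild type. The proteasome members below were Rpt4R and Rpn13R, both under 3 FPKM in every library. The proteasome's relative change was 0.42 without wild-type replicate 1 and 0.12 without wild-type replicate 2, which held the lowest value of 31 of the 34 members.

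**Figure D3:**
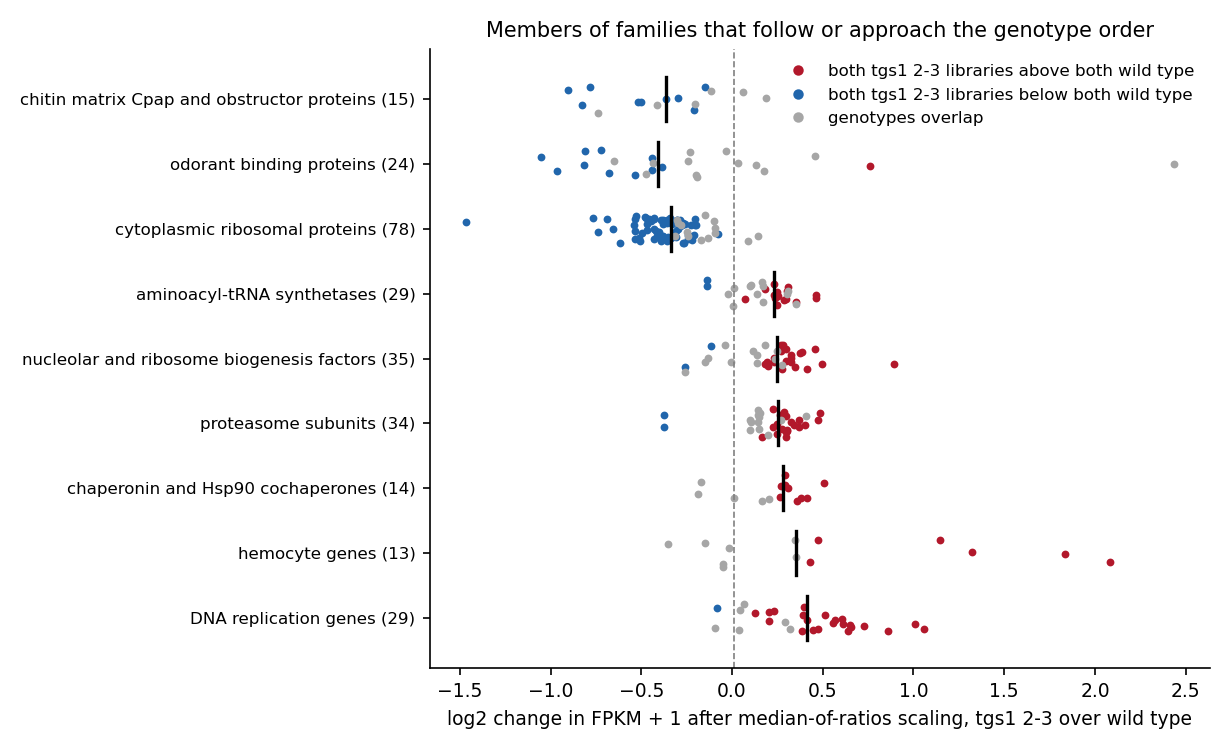
Log2 change in FPKM + 1 after median-of-ratios scaling, tgs1 2-3 over wild type (horizontal axis), of each member of 9 families (rows, number of tested members in brackets), coloured by whether the genotypes separate. Black bars are family medians and the dashed line is the median of all tested genes. Ribosomal proteins lie left of the line with 64 of 78 members below, and DNA replication genes lie right of it with 22 of 29 above.

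Hemocyte genes, which are expressed in larval blood cells, were higher in tgs1 2-3 larvae at a subset of members. Of 13 tested, 6 lay above and 0 below after scaling, beside 17.5% and 14.2% of all tested genes. The relative change was 0.38 as deposited and 0.34 after scaling. He (2L, 13972096 to 13972947), a surface protein of hemocytes, had 16.2 and 7.71 FPKM in tgs1 2-3, against 1.597 and 1.36 FPKM in wild type (log2 change 2.31, SE 0.37, limma adjusted p = 0.365). PPO1 (2R, 17887220 to 17889973), a prophenoloxidase of crystal cells that takes part in melanization, had 18.4 and 16.1 FPKM in tgs1 2-3, against 2.26 and 4.71 FPKM in wild type (log2 change 2.08, SE 0.32, limma adjusted p = 0.365). NimC1, a phagocytosis receptor of plasmatocytes, had 5.65 and 2.46 FPKM in tgs1 2-3, against 0.645 and 0.766 FPKM in wild type. The wild-type values were low at all of these, and tgs1 2-3 replicate 1 was the highest.

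The clotting protein Hml had 10.01 and 3.98 FPKM in tgs1 2-3, against 1.81 and 1.95 FPKM in wild type. Col4a1, a chain of basement membrane collagen and the most abundant member, had 92.1 and 83.8 FPKM in tgs1 2-3, against 39.5 and 67.8 FPKM in wild type. The collagen partner vkg had 44.6 and 35.1 FPKM in tgs1 2-3, against 20.9 and 30.5 FPKM in wild type, and it overlapped after scaling. Of the secreted Nimrod genes, NimB1 lay above, with 4.62 and 4.47 FPKM in tgs1 2-3, against 3.04 and 2.09 FPKM in wild type. NimB2, NimB3, NimB4 and NimB5, the clotting gene fon and the scavenger receptor crq did not separate the genotypes after scaling. As deposited, however, NimB2, NimB4 and fon were higher in both mutant libraries. crq had 9.85 and 8.65 FPKM in tgs1 2-3, against 6.25 and 15.5 FPKM in wild type. Over the family, the median deviation of tgs1 2-3 replicate 2 was -0.03 and that of wild-type replicate 2 was -0.06, so the genotypes barely separated there. The summed level of 3 measured hemocyte markers, all of them members of this family, was 34.1 and 22.5 FPKM in tgs1 2-3, against 4.72 and 7.42 FPKM in wild type. Reads of He and NimB5, which overlap on opposite strands, and of PPO1 and Elk, which overlap likewise, may not be told apart.

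Chitin matrix proteins, which build and modify the chitin of the cuticle, were lower in tgs1 2-3 larvae. Of 15 tested, 9 lay below and 0 above after scaling, beside 14.2% and 17.5% of all tested genes. The relative change was -0.42 as deposited and -0.38 after scaling. The most abundant was obst-F, an obstructor protein, with 143 and 111 FPKM in tgs1 2-3, against 199 and 189 FPKM in wild type. The deacetylase gene Cda9 had 78.4 and 77.8 FPKM in tgs1 2-3, against 114 and 108 FPKM in wild type. obst-I had 3.51 and 2.88 FPKM in tgs1 2-3, against 3.55 and 7.91 FPKM in wild type. In obst-F and Cda9 all 4 libraries bear out the difference, whereas obst-I rests on wild-type replicate 2. serp and verm, chitin deacetylases of the trachea and epidermis, did not lie below in both mutant libraries. After scaling they overlapped between genotypes, but as deposited serp was higher in both mutant libraries, with 124 and 115 FPKM in tgs1 2-3, against 75.3 and 98.5 FPKM in wild type.

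Odorant binding proteins are small secreted carriers of hydrophobic ligands. They were lower at 10 of 24 tested members and higher at 1 after scaling, beside 14.2% and 17.5% of all tested genes. The relative change was -0.41 as deposited and -0.42 after scaling. Obp56c had 4.38 and 5.25 FPKM in tgs1 2-3, against 9.97 and 8.39 FPKM in wild type. Obp49a had 35.3 and 30.3 FPKM in tgs1 2-3, against 43.2 and 66.0 FPKM in wild type. Obp57d had 73.0 and 74.3 FPKM in tgs1 2-3, against 101 and 99.4 FPKM in wild type, with both pairs tight.

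Other members went their own way. Obp44a had 92.9 and 122.8 FPKM in tgs1 2-3, against 53.9 and 48.9 FPKM in wild type. Obp99b followed 1 library, with 0.823 and 357 FPKM in tgs1 2-3, against 1.59 and 5.40 FPKM in wild type. Obp56a, the most abundant, had 398 and 759.6 FPKM in tgs1 2-3, against 975 and 110.2 FPKM in wild type, so the wild-type replicates lay at both ends. Wild-type replicate 1 held the highest value of 14 of the 24, and without it the relative change of the family was -0.18.

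The tRNA genes reached the class with 5 tested members of 133 listed, all under 6 FPKM. tRNA:Gln-TTG-2-1 had 0.512 and 0.937 FPKM in tgs1 2-3, against 1.85 and 1.82 FPKM in wild type. tRNA:Gly-GCC-1-1 had 2.16 and 1.94 FPKM in tgs1 2-3, against 2.21 and 5.72 FPKM in wild type. tRNA:SeC-TCA-1-1, for selenocysteine, had 0.481 and 1.74 FPKM in tgs1 2-3, against 1.39 and 2.24 FPKM in wild type, which overlap as deposited. tRNA:Pro-AGG-1-3 differed little, with 3.03 and 2.85 FPKM in tgs1 2-3, against 3.63 and 3.35 FPKM in wild type. tRNA:Leu-AAG-1-1 was higher, with 5.75 and 5.28 FPKM in tgs1 2-3, against 2.45 and 3.50 FPKM in wild type. Mature tRNAs have no poly(A) tail, and with no filter on low values the family's relative change was -0.11 in place of -0.72.

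Among families with at least 4 tested members, the largest medians belonged to families that followed 1 library. Salivary glue genes, which make the adhesive of the pupariating larva, were high in tgs1 2-3 replicate 2 alone. Sgs7 had 0 and 55.9 FPKM in tgs1 2-3, against 0 and 0 FPKM in wild type. Sgs8 had 0.0291 and 45.5 FPKM in tgs1 2-3, against 0.279 and 0.0585 FPKM in wild type, and Sgs3 had 0 and 31.0 FPKM in tgs1 2-3, against 0.0633 and 0 FPKM in wild type. These are neighbours on 3L. Sgs5, on 3R, had 1.11 and 20.6 FPKM in tgs1 2-3, against 0.0535 and 0.702 FPKM in wild type. The family's relative change was 2.26, and without tgs1 2-3 replicate 2 it was -0.26.

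Larval serum proteins, the amino acid stores that the fat body secretes, did the same. Lsp2 had 0.125 and 118 FPKM in tgs1 2-3, against 0.0575 and 0.0151 FPKM in wild type. Lsp1gamma had 0.0290 and 56.6 FPKM in tgs1 2-3, against 0.196 and 0.856 FPKM in wild type, and Lsp1alpha had 0.00686 and 10.3 FPKM in tgs1 2-3, against 0.0938 and 0.218 FPKM in wild type. Fbp1, the receptor that takes the serum proteins back up, had 0 and 25.1 FPKM in tgs1 2-3, against 0 and 0 FPKM in wild type. In all of these a single mutant library carried the signal.

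Lsp1beta was the exception, with 0.144 and 265 FPKM in tgs1 2-3, against 4.73 and 51.8 FPKM in wild type, so wild-type replicate 2 also had it. The relative change of the serum family was 2.10, and -0.44 without tgs1 2-3 replicate 2. Eig71Ee, a late salivary gene, was listed at 0 and 10.4 FPKM in tgs1 2-3, against 0.0457 and 0.185 FPKM in wild type. The rest of its family, Eig71Ea, Eig71Eb, Eig71Ec and Eig71Ed, lay under the minimum and went the other way, lower in both mutant libraries. Eig71Ea had 0 and 0.173 FPKM in tgs1 2-3, against 0.583 and 0.936 FPKM in wild type. Eig71Eb had 0 and 0 FPKM in tgs1 2-3, against 0.408 and 0.517 FPKM in wild type. Eig71Ee therefore does not stand for its family. Lsp2 is among the 5 largest differences whose libraries do not overlap only because its low mutant library exceeds wild type by a fraction of 1 FPKM. Summed over 3 measured salivary gland markers, the level was 0.0291 and 132 FPKM in tgs1 2-3, against 0.343 and 0.0585 FPKM in wild type. Whether older larvae in that library account for this was not tested.

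**Figure D4:**
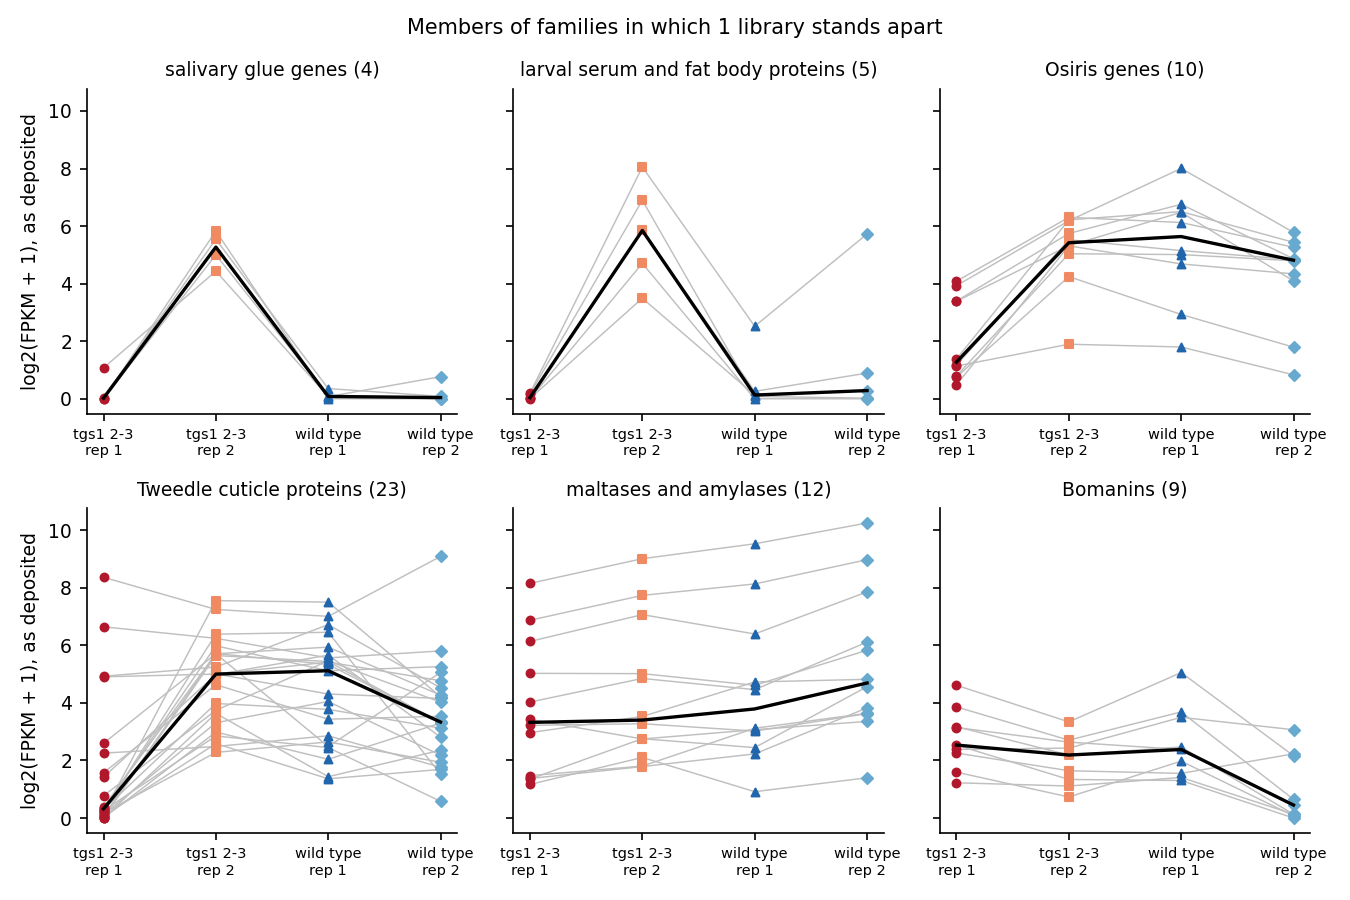
Log2(FPKM + 1) as deposited (vertical axis) in the 4 libraries (horizontal axis, tgs1 2-3 replicates left of wild-type replicates) for members of 6 families, 1 grey line per gene, with the median in black. Glue and serum genes stand up in tgs1 2-3 replicate 2, Osiris and Tweedle genes drop in tgs1 2-3 replicate 1, and Bomanins drop in wild-type replicate 2.

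Cuticle genes of the moult followed the other mutant library. Of 23 tested Tweedle genes, which encode cuticle proteins that shape the body, 19 had their lowest value in tgs1 2-3 replicate 1, and so had 9 of 10 Osiris genes, which are expressed with cuticle secretion. TwdlM had 0.122 and 187 FPKM in tgs1 2-3, against 180.2 and 17.5 FPKM in wild type. TwdlF had 0.248 and 62.3 FPKM in tgs1 2-3, against 33.7 and 37.3 FPKM in wild type. Twdlbeta was the only one of the largest 3 in which both mutant libraries lay below wild type, with 0.709 and 12.4 FPKM in tgs1 2-3, against 43.0 and 15.3 FPKM in wild type. TwdlO, the most abundant, had 329 and 151 FPKM in tgs1 2-3, against 128 and 544 FPKM in wild type, an order unlike that of the others.

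Among Osiris genes, Osi9 had 1.61 and 73.3 FPKM in tgs1 2-3, against 89.7 and 42.3 FPKM in wild type. Osi19 had 0.728 and 31.9 FPKM in tgs1 2-3, against 31.2 and 26.7 FPKM in wild type. Osi6, the most abundant, had 14.2 and 71.7 FPKM in tgs1 2-3, against 256 and 54.0 FPKM in wild type. In each, the other mutant library lay within or above the range of wild type. The relative change of the Tweedle genes was -1.21 with all libraries and 0.48 without tgs1 2-3 replicate 1, and that of the Osiris genes was -1.68 and 0.12. The sign of both families thus turned with 1 library.

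The 63 tested Cpr cuticle proteins, the largest cuticle family, split more widely. Their relative change was -0.54, and 37 of them were highest in wild-type replicate 1 and 33 lowest in tgs1 2-3 replicate 1. Cpr64Ab had 0 and 17.0 FPKM in tgs1 2-3, against 44.2 and 5.49 FPKM in wild type, and Cpr65Ea had 0.964 and 155 FPKM in tgs1 2-3, against 91.5 and 30.6 FPKM in wild type. Cpr78E and Lcp2 instead joined the glue genes. Cpr78E had 1.65 and 75.5 FPKM in tgs1 2-3, against 3.85 and 2.92 FPKM in wild type, and Lcp2 had 3.06 and 71.2 FPKM in tgs1 2-3, against 3.85 and 5.22 FPKM in wild type.

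Across all tested genes, the libraries that stood alone were the same ones. Wild-type replicate 1 lay over 1 log2 unit above all other libraries at 187 genes, wild-type replicate 2 at 69, tgs1 2-3 replicate 2 at 36 and tgs1 2-3 replicate 1 at 15. On the low side tgs1 2-3 replicate 1 lay over 1 unit below all others at 148 genes, wild-type replicate 2 at 116, wild-type replicate 1 at 39 and tgs1 2-3 replicate 2 at 17.

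Maltases and amylases, midgut enzymes that cut sugars and starch, were lower in tgs1 2-3 larvae on balance. The family is among those that followed 1 library, with wild-type replicate 2 the highest. Of 12 tested, 8 lay below and 0 above after scaling, beside 14.2% and 17.5% of all tested genes. The relative change was -1.30. Amy-p, the most abundant, had 284 and 515 FPKM in tgs1 2-3, against 737 and 1217 FPKM in wild type, and its near-identical copy Amy-d had 116 and 212 FPKM in tgs1 2-3, against 279.7 and 502 FPKM in wild type. The copies share reads, so they are not independent. Amyrel, an amylase relative, had 1.78 and 2.49 FPKM in tgs1 2-3, against 7.68 and 11.5 FPKM in wild type (log2 change -1.74, SE 0.27, limma adjusted p = 0.365). tobi, an alpha-glucosidase, had 6.81 and 10.5 FPKM in tgs1 2-3, against 25.5 and 27.2 FPKM in wild type. Both stand clear in every library, and tgs1 2-3 replicate 1 is the lower mutant library in all of these.

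Mal-A6 shows the uneven side, with 1.56 and 5.76 FPKM in tgs1 2-3, against 4.45 and 22.6 FPKM in wild type. Wild-type replicate 2 held the highest value of 10 of the 12 members after scaling. Without it the family's relative change was -0.54, and without wild-type replicate 1 it was -1.79. It was negative under every alternative tried. Lipases and alpha-mannosidases followed the same libraries, with 7 of 12 below and 1 above after scaling, beside 14.2% and 17.5% of all tested genes. The lipase gene CG6277 had 15.4 and 50.0 FPKM in tgs1 2-3, against 61.9 and 275 FPKM in wild type, and Lip3 had 12.8 and 8.11 FPKM in tgs1 2-3, against 15.7 and 66.5 FPKM in wild type.

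Secreted proteases were mixed. Of 9 tested trypsins 4 lay below and 0 above after scaling, beside 14.2% and 17.5% of all tested genes. Of the 9, 8 were highest in wild-type replicate 2. betaTry had 92.9 and 98.4 FPKM in tgs1 2-3, against 171 and 208 FPKM in wild type, while yip7, the most abundant, had 1866 and 1763 FPKM in tgs1 2-3, against 1525 and 3568 FPKM in wild type. Jonah proteases split by replicate number within both genotypes. Of 16 tested, 2 lay above and 2 below, beside 17.5% and 14.2% of all tested genes. Summed over members they had 30458 and 42209 FPKM in tgs1 2-3, against 23619 and 41087 FPKM in wild type. The summed level of 4 measured gut markers also overlapped, with 4486 and 4348 FPKM in tgs1 2-3, against 5058 and 3812 FPKM in wild type. Most of that sum was Peritrophin-15a, with 3304 and 2594 FPKM in tgs1 2-3, against 4135 and 2390 FPKM in wild type. Peritrophin-15a and Jon65Ai overlapped, whereas betaTry and Mal-A1 lay below in both mutant libraries. Jon44E (2R, 8691448 to 8692844) had 65.9 and 109 FPKM in tgs1 2-3, against 308 and 474 FPKM in wild type (log2 change -2.16, SE 0.36, limma adjusted p = 0.405). In contrast, Jon99Fi had 831 and 1469 FPKM in tgs1 2-3, against 540.5 and 459 FPKM in wild type, and Jon99Fii had 991 and 1468 FPKM in tgs1 2-3, against 575 and 578 FPKM in wild type. The genes Jon99Fi and Jon99Fii are alike enough that their reads could be shared. Jon99Cii, the most abundant, had 6595 and 9557 FPKM in tgs1 2-3, against 4667 and 7542 FPKM in wild type. Jon99Ci had 97.5 and 232 FPKM in tgs1 2-3, against 136 and 342 FPKM in wild type. Both overlapped between genotypes.

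The 4 tested lysozymes did not move as a family. LysP had 3.27 and 5.07 FPKM in tgs1 2-3, against 15.03 and 13.3 FPKM in wild type, and LysS had 2408 and 3189 FPKM in tgs1 2-3, against 2569 and 4599 FPKM in wild type. LysD had 301 and 492 FPKM in tgs1 2-3, against 661 and 19.2 FPKM in wild type, and LysE had 255 and 293 FPKM in tgs1 2-3, against 482 and 199.8 FPKM in wild type. Only LysP stood clear as deposited, and LysD turned on wild-type replicate 2. LysD and LysE are near-identical copies, so the split of reads between them is uncertain.

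Bomanins, short immune peptides under Toll control, were low in wild-type replicate 2, which held the lowest value of 7 of 9 tested members. BomS1 had 13.5 and 5.52 FPKM in tgs1 2-3, against 11.9 and 0.569 FPKM in wild type. BomBc2 had 7.84 and 5.22 FPKM in tgs1 2-3, against 4.21 and 0.366 FPKM in wild type. BomS6 was lower in both mutant libraries, with 4.21 and 4.39 FPKM in tgs1 2-3, against 10.3 and 7.38 FPKM in wild type. The family's relative change was 0.14, and it was 1.64 without wild-type replicate 1 and -0.58 without wild-type replicate 2.

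Of the mitochondrial genome genes, 15 of 23 were highest in wild-type replicate 1. mt:CoIII had 4679.8 and 3548 FPKM in tgs1 2-3, against 12680.2 and 4438 FPKM in wild type. The row with the highest value in the table, mt:tRNA:Val-TAC, had 63803 and 63619 FPKM in tgs1 2-3, against 152586 and 67981 FPKM in wild type. Both show the same single high library. Male germ-line genes were low in tgs1 2-3 replicate 1, the lowest library for 16 of 19 tested. Mst84Db had 0.743 and 7.44 FPKM in tgs1 2-3, against 11.6 and 4.16 FPKM in wild type. The sex ratio of the larvae pooled in each library is not given in the sources used here, and its part in these values was not tested.

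Heat-inducible chaperones split within both genotypes. Hsp70Ab had 124 and 507 FPKM in tgs1 2-3, against 72.0 and 256 FPKM in wild type, and its near-identical copies Hsp70Aa and Hsp70Ba had the same order of libraries. Hsp23, a small heat shock protein, had 33.9 and 149.5 FPKM in tgs1 2-3, against 32.0 and 43.5 FPKM in wild type, with tgs1 2-3 replicate 2 apart. Hsp26 and Hsp27 were also highest in that library, and with Hsp67Bc and l(2)efl they overlapped between genotypes after scaling. V-ATPase subunits, of the vacuolar proton pump, were highest in tgs1 2-3 replicate 1 at 14 of 22 members. Vha68-2 had 736 and 417 FPKM in tgs1 2-3, against 276 and 487 FPKM in wild type. In none of these families did genotype order the libraries. The ribosomal RNA entries were highest in wild-type replicate 2 at 6 of 6 tested members after scaling. As deposited, 5.8SrRNA:CR45852 had 436 and 398 FPKM in tgs1 2-3, against 256 and 599 FPKM in wild type. The entries 28SrRNA-Psi:CR45859 and 28SrRNA-Psi:CR40741 lay below, and 28SrRNA-Psi:CR45862, 28SrRNA-Psi:CR45848 and 18SrRNA-Psi:CR41602 overlapped. Among 6 tested genes of ecdysone synthesis only Ptth, the hormone that triggers it, separated the genotypes, with 2.27 and 3.07 FPKM in tgs1 2-3, against 4.45 and 3.93 FPKM in wild type. The enzyme genes sro, shd, spok and sad and the sterol transport gene Npc1a overlapped.

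Turandot genes, secreted stress peptides of the fat body, gave the largest differences of single genes, and both of the tested members lay next to each other on 3R. TotA (20871036 to 20871700) had 112 and 84.9 FPKM in tgs1 2-3, against 0.673 and 1.55 FPKM in wild type (log2 change 5.58, SE 0.30, limma adjusted p = 0.0886). TotC (20872988 to 20873580) had 16.04 and 23.2 FPKM in tgs1 2-3, against 0 and 0.701 FPKM in wild type (log2 change 3.96, SE 0.35, limma adjusted p = 0.198). Both mutant libraries were high and both wild-type libraries near 0, a gap many times the spread within either genotype. The cluster did not move as a whole. TotB, which follows TotC, had 0.0690 and 0 FPKM in tgs1 2-3, against 0.201 and 0 FPKM in wild type, and TotZ had 0 and 0.530 FPKM in tgs1 2-3, against 0 and 0 FPKM in wild type. Both lie under the minimum. The gene before TotA, KaiR1D, had a scaled log2 change of -0.03.

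Apart from Lsp2, the other differences on the high side that were largest or had the smallest limma p were in genes with little annotation. CG9945 had 53.6 and 66.8 FPKM in tgs1 2-3, against 3.57 and 5.68 FPKM in wild type (log2 change 3.46, SE 0.28, limma adjusted p = 0.198). CG11300 had 577 and 1176 FPKM in tgs1 2-3, against 47.6 and 103 FPKM in wild type, and CG13135 had 27.3 and 21.4 FPKM in tgs1 2-3, against 2.20 and 0 FPKM in wild type. CG10638 had 32.1 and 35.3 FPKM in tgs1 2-3, against 7.42 and 7.15 FPKM in wild type. All 4 had both mutant libraries above both wild-type libraries. Replicates lay close together in CG9945 and CG10638, which were named for a small p. They were less even in CG11300 and CG13135, where the SE of the log2 change was 0.52 and 0.58, against 0.20 for CG10638. The long noncoding RNA gene lncRNA:CR43855 had 14.4 and 9.41 FPKM in tgs1 2-3, against 0.614 and 0.387 FPKM in wild type, and it overlaps Sema1a on the opposite strand. CG9945 likewise overlaps CG11180, and CG13135 overlaps CG34109 and CG44153.

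The largest differences on the low side sat in a short stretch of 3L. CG12522 (11108235 to 11108732) had 76.3 and 107 FPKM in tgs1 2-3, against 1371 and 361 FPKM in wild type. CG32073 (11107008 to 11107582) had 9.97 and 18.1 FPKM in tgs1 2-3, against 178 and 64.6 FPKM in wild type. CG32071 (11103421 to 11103873) had 167 and 413 FPKM in tgs1 2-3, against 2463 and 899 FPKM in wild type. All 3 lay below in both mutant libraries and ran in the same order of libraries, with tgs1 2-3 replicate 1 lowest and wild-type replicate 1 highest. Their log2 changes were -2.95, -2.90 and -2.50 (SE 0.66, 0.56 and 0.65, limma adjusted p = 0.575, 0.532 and 0.575). Elo68alpha, next to CG32071 and under the minimum, was also lower in both mutant libraries, with 0.224 and 0.474 FPKM in tgs1 2-3, against 1.64 and 1.07 FPKM in wild type. Elo68beta and CG34012, under 0.6 FPKM in every library, overlapped. The nearest tested genes on either side did not share the difference. APP-BP1, to the left, had a scaled log2 change of 0.12, and emei and Sod1, to the right, had 0.13 and -0.02.

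A neighbouring pair on 2L was higher in the mutant. CG13946 (776536 to 776941) had 6.07 and 13.5 FPKM in tgs1 2-3, against 0.687 and 0.312 FPKM in wild type, and CG13947 (779173 to 779655) had 43.7 and 88.7 FPKM in tgs1 2-3, against 10.4 and 10.1 FPKM in wild type. This pair and its stretch were chosen after their values were seen.

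Cyp4p2 (2R, 9237512 to 9239831), a cytochrome P450 gene, had the smallest limma p on the low side. It had 12.6 and 13.7 FPKM in tgs1 2-3, against 67.3 and 70.7 FPKM in wild type (log2 change -2.31, SE 0.21, limma adjusted p = 0.198), and it overlaps hig on the opposite strand. CG17107 had 4.10 and 6.398 FPKM in tgs1 2-3, against 25.3 and 25.6 FPKM in wild type. mbl, which encodes a regulator of alternative splicing, had 3.49 and 4.93 FPKM in tgs1 2-3, against 13.97 and 16.9 FPKM in wild type, in a locus that holds several other genes. CG15236 had 1.48 and 1.52 FPKM in tgs1 2-3, against 5.26 and 5.11 FPKM in wild type, and it too overlaps other genes. In each the replicates of a genotype lay close together, which naming genes by smallest p favours.

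**Figure D5:**
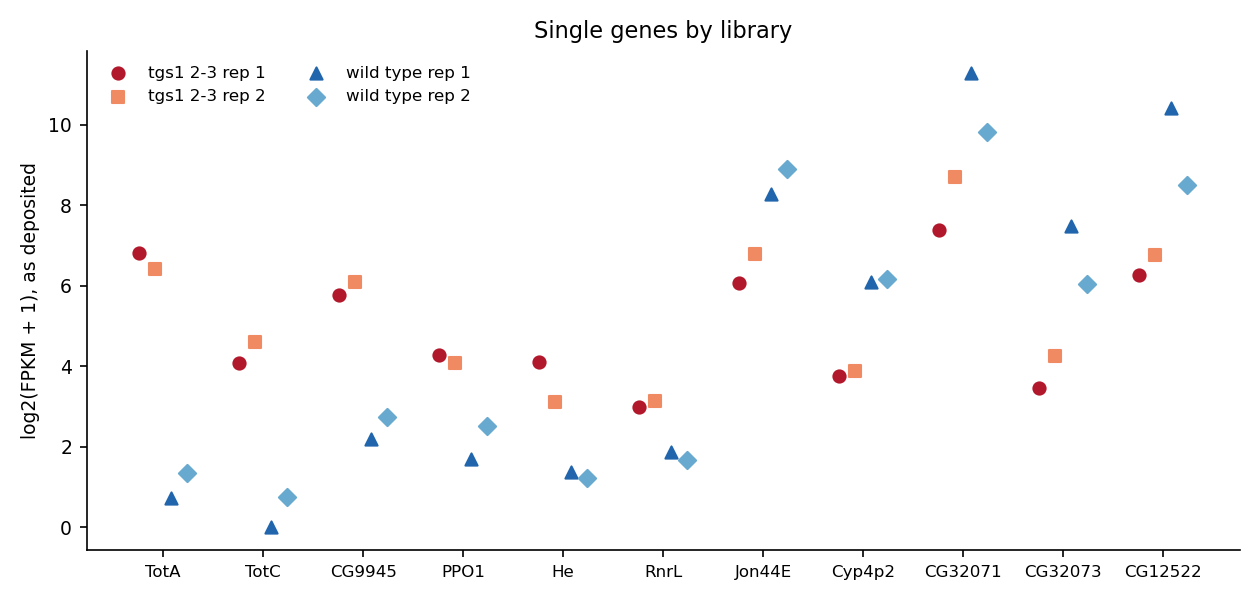
Log2(FPKM + 1) as deposited (vertical axis) of 11 genes (horizontal axis) in the 4 libraries, tgs1 2-3 libraries drawn left of wild-type libraries within each gene. TotA and TotC are near 0 FPKM in wild type alone, Cyp4p2 has tight pairs, and CG32071, CG32073 and CG12522 run in the same order of libraries.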

How the data were processed

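Poly(A)-selected RNA of whole second instar larvae was sequenced on an Illumina instrument in 2 libraries per genotype. The deposited values are FPKM, which the authors made after read filtering and HISAT2 alignment to the release 6 fly genome. For expression levels their methods cite featureCounts with DESeq2, but the tool behind the FPKM values is not given in the sources used here. Counts were not analysed here, so depth and counting error are unknown, and 2 replicates limit the precision. No scaling between libraries is stated.

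Gene names and positions were taken from the Ensembl release 115 annotation of BDGP6.54, in which 99.2% of identifiers were found. The 1167 entries without a FlyBase gene were left out, as were the testis libraries. Values were compared on log2(FPKM + 1), which understates changes of low genes, for genes whose mean reached 1 FPKM, with limma 3.58.1 (lmFit and eBayes with trend, genotype as the only term) in R 4.3.3, as deposited and after median-of-ratios scaling. Python 3.11.15, pandas 2.3.3, numpy 2.4.6 and matplotlib 3.10.9 were used. The script was tested on simulated data. The genes, the 63 families and their limits were chosen with earlier results of these data known, and symbols that a name pattern had wrongly put in a family were taken out after values were seen.

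Genes were named by rule: moi, the highest member and the 3 largest changes of each described family, all members of families of up to 8, the 5 largest differences each way among genes whose libraries do not overlap, and the 5 smallest p each way. Other names were chosen after their values were seen. Alternatives were other scalings, a pseudocount of 0.1, no filter, a mean of 5 FPKM, a replicate block and each library left out. A search of promoters for motifs was not run, and no sequence is printed.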

Additional observations from a re-analysis of the deposited data

How the results depend on the processing

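With limma, 0 genes were called in either direction under the other scalings, pseudocount and filters and with the replicate number as a replicate block, which left 467 genes higher and 83 lower at an unadjusted p under 0.05. Leaving out 1 library gave 0 to 7 genes called higher and 0 lower. At an unadjusted p under 0.05 the counts were 668 higher and 74 lower as deposited, 195 and 220 after median-of-ratios scaling, 160 and 207 with scaling and the block, and between 193 and 1596 higher and between 43 and 220 lower over the leave-outs. With no filter 219 were lower, and at a mean of 5 FPKM 42. Genes above in both mutant libraries numbered 4116 as deposited, 1668 after scaling and 2692 at a mean of 5 FPKM, and genes below numbered 426, 1356 and 250, or 1160 with no filter. Fewer genes tested set the counts at the higher filter. The replicate numbers are not shown to pair the libraries, as same-numbered deviations had a correlation of -0.17. Chosen after seeing the data, a crossed pairing called 1 gene higher, TotA (431 higher and 137 lower at an unadjusted p under 0.05), and leave-outs after scaling called 0, with 115, 113, 403 and 379 higher and 100, 218, 364 and 549 lower without tgs1 2-3 replicates 1 and 2 and wild-type replicates 1 and 2 in turn.

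All 6 families that followed the genotype kept the sign of their relative change under every alternative, against 7 of 14 that followed 1 library, 0 of 4 that split within a genotype and 14 of 32 flat ones. The rule for the first class already asks that both libraries of each genotype and both scalings go the same way. This contrast therefore follows largely from the sorting and is not separate support. With 2 libraries per genotype and no counts, the precision for single genes is limited.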

Other observations

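Detoxification genes were not a family that moved together, but single members differed widely. Of 62 tested cytochrome P450 genes, 6 lay above and 18 below after scaling, beside 17.5% and 14.2% of all tested genes. Besides Cyp4p2, Cyp9h1 was lower in tgs1 2-3 larvae, with 3.37 and 3.28 FPKM in tgs1 2-3, against 8.15 and 10.9 FPKM in wild type, and Cyp6a2 had 5.98 and 5.45 FPKM in tgs1 2-3, against 12.5 and 35.1 FPKM in wild type. On the high side Cyp6d2 had 8.84 and 8.94 FPKM in tgs1 2-3, against 1.30 and 2.65 FPKM in wild type, and Cyp4g15 had 81.8 and 47.1 FPKM in tgs1 2-3, against 15.2 and 22.6 FPKM in wild type. Among 31 glutathione S-transferases, 9 lay above and 4 below, beside the same 17.5% and 14.2%. GstE6 had 154 and 163 FPKM in tgs1 2-3, against 70.7 and 40.3 FPKM in wild type. GstE8 followed 1 library, with 7.07 and 0.0269 FPKM in tgs1 2-3, against 0.417 and 0.148 FPKM in wild type.

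Of the RNAs of the male dosage compensation complex, lncRNA:roX1 had 177 and 131 FPKM in tgs1 2-3, against 17.1 and 229 FPKM in wild type, so wild-type replicate 1 was the lowest library by far. lncRNA:roX2 did not share this, with 8.85 and 14.9 FPKM in tgs1 2-3, against 10.4 and 11.6 FPKM in wild type. Of the protein subunits, msl-3 lay below after scaling, and mof, msl-1 and mle overlapped. Apoptosis and p53 response genes, 13 tested, had a relative change of 0.13. Among them Irbp18, the partner of Xrp1, had 31.4 and 32.0 FPKM in tgs1 2-3, against 15.7 and 12.996 FPKM in wild type, and Dronc, the initiator caspase, had 7.29 and 11.3 FPKM in tgs1 2-3, against 4.89 and 4.58 FPKM in wild type. Antimicrobial peptides had 2 of 13 above and 1 below, beside 17.5% and 14.2% of all tested genes. CecC had 28.6 and 45.6 FPKM in tgs1 2-3, against 18.4 and 5.43 FPKM in wild type. These genes were named after their values were seen, and none of them passed the limma test.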
